A study of Rattus norvegicus with 24 samples.

Results

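Ugt2b1, Ugt2b7 and Ugt1a1 encode UDP-glucuronosyltransferases, enzymes of the endoplasmic reticulum that join glucuronic acid to drugs, hormones and waste products. The sugar makes the product soluble in water, so that it can leave the liver in bile or blood. Ugt1a1 conjugates bilirubin, the breakdown product of haem, and its loss causes jaundice in the Gunn rat. Ugt2b1 is a rat liver enzyme that acts on testosterone and phenols, and in humans UGT2B7 acts on morphine and steroids. Several UGT genes are classic targets of foreign compounds through the receptors CAR, PXR and AhR and the factor Nrf2.

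The 3 genes were chosen by name and not by their values. They had 7 probes among the 21900 on the array, 3 for Ugt2b1 (named Udpgtr2 in the array design), 3 for Ugt2b7 (named LOC286989) and 1 for Ugt1a1. All 7 were among the 16085 probes kept after the filter on dim signal, and Ugt2b7 passed it only through the rats given 1,2,3-trichloropropane and 1,2-dichlorobenzene. The 7 probes were printed as 14 spots and held 5 distinct sequences, since probes 5750 and 15750 of Ugt2b1 are identical, and so are probes 919 and 10919 of Ugt2b7.

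Livers came from 24 male F344 rats, an inbred laboratory strain, labelled as 5 weeks old, with 4 rats for each of 6 compounds given by gavage each day for 28 days. Of the compounds the design calls carcinogens, hexachloroethane was given at 500 mg/kg/day and the anthraquinone dye 1-amino-2-methylanthraquinone at 150. The dose of 1,2,3-trichloropropane was 50 mg/kg/day and that of 3-(4-chlorophenyl)-1,1-dimethylurea, known as monuron, 250. The 2 compounds called non-carcinogens were tetracycline hydrochloride, given at 1000 mg/kg/day, and 1,2-dichlorobenzene, given at 300. The vehicle was water for tetracycline hydrochloride and corn oil for the other 5 compounds. On every array the Cy3 channel held the RNA of 1 treated rat and the Cy5 channel RNA pooled from 4 vehicle rats. The pool counts as 1 sample, so its spread between rats is left out, and a dye effect alike on all arrays stays in each ratio. Each compound had 1 dose and 1 slide of its own, so compound, dose and slide cannot be told apart. Hexachloroethane and tetracycline hydrochloride shared a scan day, as did monuron and 1,2-dichlorobenzene.

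The share of probes well above background was 59.7 to 71.7% for treated RNA and 64.2 to 75.9% for vehicle RNA. All 8 hepatocyte markers examined were well above background in both channels on all 24 arrays. Their median log2 ratio lay between -0.59 and -0.31 across the compounds, while the median of all probes lay between -0.021 and -0.011. Fewer cells of a type and less RNA per cell cannot be told apart in whole liver. The number of arrays limits the precision. Signals are normalised intensities in arbitrary units, read within a probe and never between probes. A ratio is log2 of treated rat over vehicle pool, a mean is given ± SD over 4 rats, and a probe was called at an adjusted p under 0.05 in limma together with a change of at least 2-fold.

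On its brightest probe Ugt2b1 was above its vehicle pool in all 24 rats. On probes 5750 and 15750 replicate 2 of 1-amino-2-methylanthraquinone lay just below it, at log2 ratios of -0.020 and -0.057. On the brightest probe Ugt2b1 was highest relative to vehicle under hexachloroethane, 1,2-dichlorobenzene and monuron. It rose less under 1,2,3-trichloropropane, and sat at the 2-fold line under tetracycline hydrochloride. Under 1-amino-2-methylanthraquinone it stayed under 2-fold. The order of the compounds depended in part on the probe, as given further on.

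The brightest probe of Ugt2b1, 705297, gave the values that follow. Its signal was 91297, 100406, 104333 and 83030 in the hexachloroethane rats, against 17393, 17423, 17875 and 17548 in their vehicle channels. The log2 ratios were 2.39, 2.53, 2.55 and 2.24, a mean of 2.43 ± 0.14 or 5.38-fold (adjusted p = 7.22e-13). The treated and vehicle signals did not overlap, and the mean ratio was the 10th largest of the 16085 probes under hexachloroethane.

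The 1,2-dichlorobenzene rats had Ugt2b1 signals of 78324, 76746, 69489 and 60284, against 13358, 13632, 13757 and 14313 in the vehicle channels. The log2 ratios of 2.55, 2.49, 2.34 and 2.07 averaged 2.36 ± 0.21, or 5.15-fold (adjusted p = 2.42e-13). Monuron, a phenylurea herbicide, gave the smallest SD of the 6 compounds on this probe. Its rats had signals of 58021, 57106, 51874 and 56066, against 13286, 12617, 12758 and 12580 in the vehicle channels. The log2 ratios of 2.13, 2.18, 2.02 and 2.16 averaged 2.12 ± 0.068, or 4.35-fold (adjusted p = 3.74e-12). Under each of these compounds every treated signal was above every vehicle signal.

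Under 1,2,3-trichloropropane the Ugt2b1 signals were 42689, 39183, 36587 and 38373, against 16200, 16514, 16049 and 15265 in the vehicle channels. The log2 ratios of 1.40, 1.25, 1.19 and 1.33 averaged 1.29 ± 0.092, or 2.45-fold (adjusted p = 5.72e-09). The groups did not overlap, yet with each array centred on its median in place of loess the mean was 0.59 and no longer past 2-fold.

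Tetracycline hydrochloride gave signals of 29816, 18156, 19885 and 17284, against 11196, 10200, 9743 and 10184 in the vehicle channels. One rat stood above the other 3, with log2 ratios of 1.41, 0.83, 1.03 and 0.76. The array of this rat, replicate 1, also stood apart in its vehicle channel. There Ugt1a1 was lower, at 795 against 1051 to 1119 on the other arrays of the compound, and Ugt2b1 was higher, at 11196. That array had 48 outlier spots, against 0 to 2 on the others. Rat and array cannot be told apart. The mean of 1.01 ± 0.29, or 2.01-fold, passed the call (adjusted p = 3.67e-07). That call rested on replicate 1, without which the mean was 0.87, and it also ended under 5 other ways of processing the signals, the lowest value being 0.51 with median centring.

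The 1-amino-2-methylanthraquinone rats had Ugt2b1 signals of 35334, 21731, 35652 and 29752, against 19482, 18725, 18058 and 19008 in the vehicle channels. The log2 ratios of 0.86, 0.21, 0.98 and 0.65 averaged 0.68 ± 0.34 (adjusted p = 8.96e-06). This was under 2-fold and not called, and the mean turned to -0.23 with median centring. In the same livers 3 of 4 measured bile duct markers were called higher (2.12% of 11579 genes called in either direction), with Epcam at 2.11, and the summed signal of the 4 markers was 8314 to 12685 in treated rats, against 3241 to 3517 in the vehicle channels. That sum was 3405 to 6182 in the treated rats of the other 5 compounds. The part of these cells in the Ugt2b1 ratio was not tested.

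**Figure D1:**
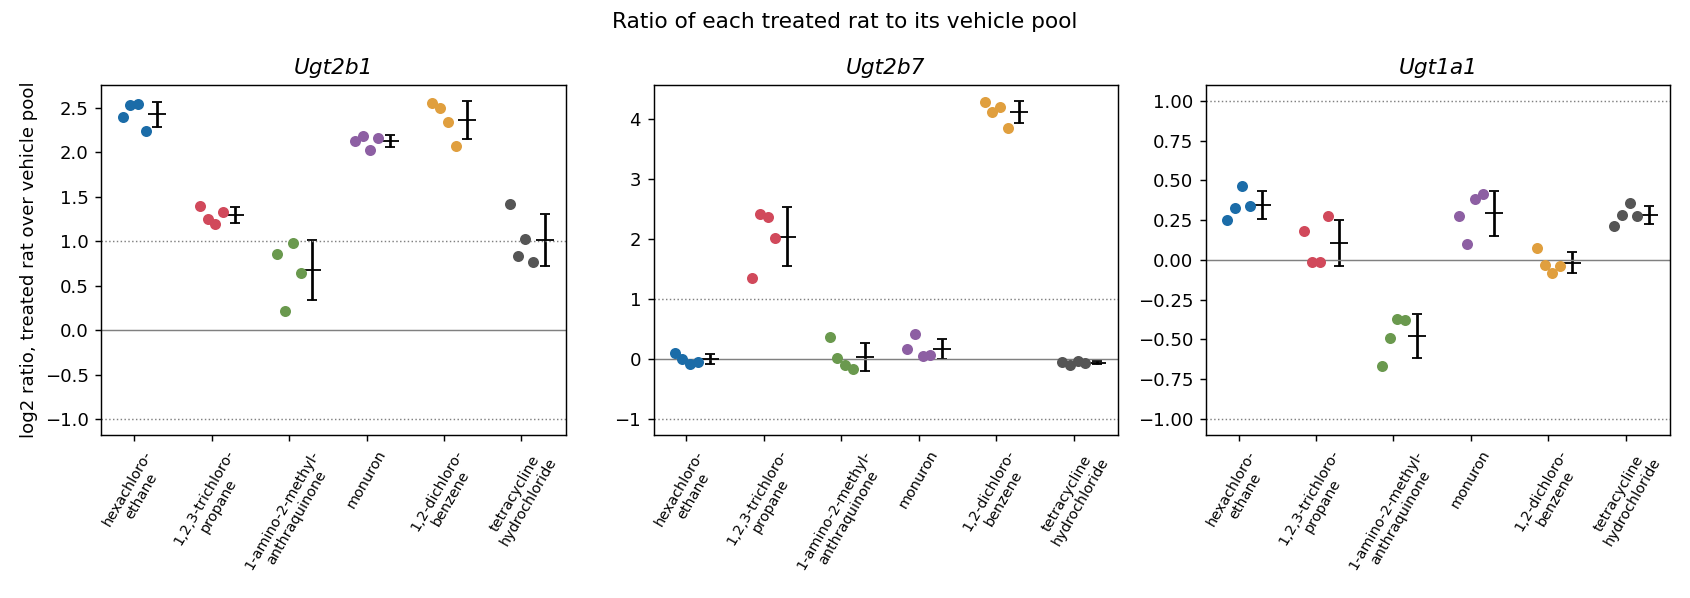
Log2 ratio of treated rat over vehicle pool (vertical axis) for the brightest probe of each gene, by compound. Each point is 1 rat, the bar beside the points is the mean with its SD over 4 rats, and the dotted lines mark 2-fold. All Ugt2b1 points lie above 0, Ugt2b7 stands apart only under 1,2,3-trichloropropane and 1,2-dichlorobenzene, and no Ugt1a1 point reaches 2-fold.

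**Figure D2:**
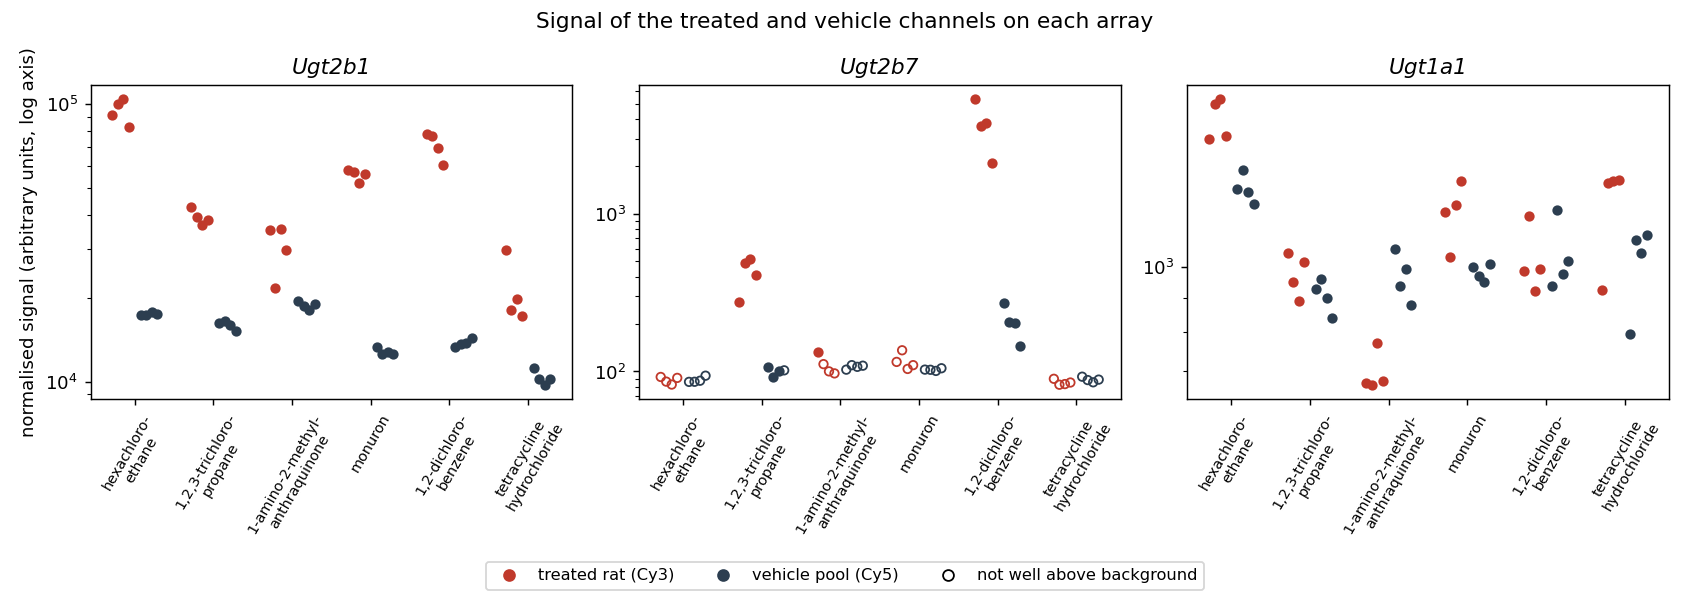
Normalised signal in arbitrary units (log axis) of the treated rat (red, left in each compound) and of the vehicle pool (dark, right) on each of 24 arrays. Open circles were not well above background. The treated Ugt2b7 signals of 2103 to 5340 under 1,2-dichlorobenzene stand far above those of the 4 compounds at or near background.

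Against vehicle, 3 of the 7 probes of these genes were called under hexachloroethane, where 1.23% of all 16085 probes were called in either direction. Under 1,2,3-trichloropropane 4 of 7 were called (1.24% of all probes), under monuron 3 of 7 (1.87%), under 1,2-dichlorobenzene 6 of 7 (2.01%) and under tetracycline hydrochloride 1 of 7 (0.317%). Every one of these calls was an increase. Under 1-amino-2-methylanthraquinone 0 of 7 were called in limma, while 2.65% of all probes were. At an unadjusted p under 0.05 there, 3 of the 7 were higher and 1 lower. Probes of 1 gene are not independent, and 2 pairs of them are the same sequence.

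The compounds were set against each other in the order of their mean Ugt2b1 ratio, as neighbours, on the same fit of all 24 arrays. These are differences at the doses given, which were not matched. Hexachloroethane minus 1,2-dichlorobenzene was 0.063 (95% interval -0.24 to 0.36, adjusted p = 0.773), a comparison in which 1.45% of all probes were called. For monuron minus 1,2-dichlorobenzene the difference was -0.24 (-0.54 to 0.056, adjusted p = 0.238, 1.26% of all probes called). These 3 compounds could not be ordered.

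The step below them was larger than the spread between rats. For 1,2,3-trichloropropane minus monuron the difference was -0.83 (-1.13 to -0.53, adjusted p = 0.000349), which is under 2-fold (1.21% of all probes called). Further down, 1,2,3-trichloropropane minus tetracycline hydrochloride was 0.28 (-0.018 to 0.58, adjusted p = 0.136, 1.5% of all probes called). Between 1-amino-2-methylanthraquinone and tetracycline hydrochloride it was -0.33 (-0.63 to -0.035, adjusted p = 0.0661, 2.54% of all probes called). Within the shared scan day, Ugt2b1 was 1.42 higher under hexachloroethane than under tetracycline hydrochloride.

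Set against the mean of the other 5 compounds, where a dye effect cancels, the Ugt2b1 ratio under 1-amino-2-methylanthraquinone was smaller, with a difference of -1.17 (adjusted p = 5.12e-08), though all 4 rats were above their vehicle pool. In that comparison 1.54% of all probes were called. The same contrast was 0.93 for hexachloroethane, 0.86 for 1,2-dichlorobenzene, 0.57 for monuron, -0.43 for 1,2,3-trichloropropane and -0.77 for tetracycline hydrochloride, all within 2-fold.

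The Ugt2b1 probes read different stretches of the transcript. They are shown because their ratios differ, both in lower case, the first whole and the second by its first 30 bases.
Ugt2b1 probe 5750: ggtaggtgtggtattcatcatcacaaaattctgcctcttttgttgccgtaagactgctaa
Ugt2b1 probe 705297, bases 1 to 30: acaataactgaagctactgtagttcataaa
Over its whole length of 60 bases probe 705297 had a stop codon in every forward reading frame, and probe 5750 was open in 1 forward frame. Neither shares a run of 10 or more bases with a probe of another UGT gene.

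Probe 5750 gave lower Ugt2b1 ratios than 705297 under all 6 compounds. Its means were 1.68 ± 0.12 for hexachloroethane, 0.97 ± 0.11 for 1,2,3-trichloropropane, 0.37 ± 0.30 for 1-amino-2-methylanthraquinone, 1.76 ± 0.071 for monuron, 1.95 ± 0.14 for 1,2-dichlorobenzene and 0.34 ± 0.29 for tetracycline hydrochloride. Its identical partner 15750 differed from it by little, with 1.70 under hexachloroethane and 0.34 under tetracycline hydrochloride. On this sequence 1,2-dichlorobenzene stood highest, then monuron, then hexachloroethane, and neither 1,2,3-trichloropropane nor tetracycline hydrochloride passed 2-fold. Under tetracycline hydrochloride the log2 ratios of probe 5750 were 0.73, 0.12, 0.41 and 0.12. Replicate 1 was the highest rat there too.

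**Figure D3:**
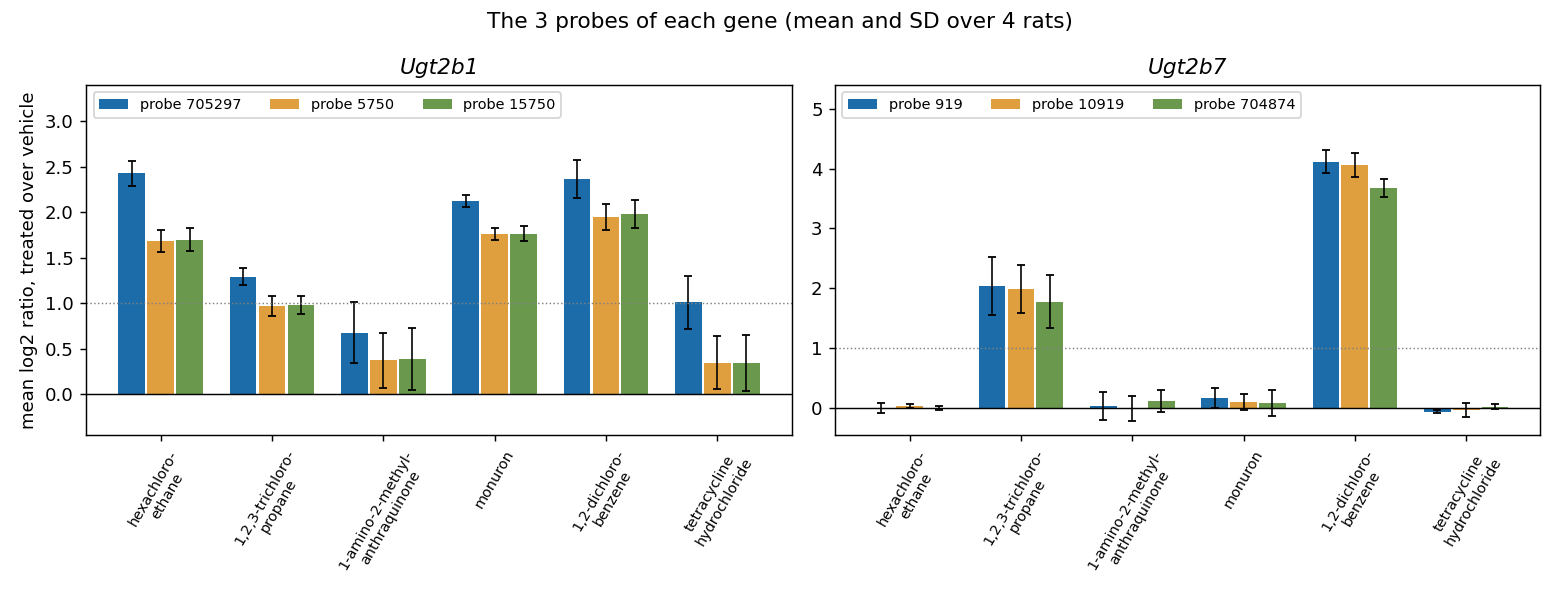
Mean log2 ratio of treated over vehicle (vertical axis) for the 3 probes of Ugt2b1 and of Ugt2b7, by compound, with SD over 4 rats. The dotted line marks 2-fold. Ugt2b1 probe 705297 lies above the identical pair 5750 and 15750 under every compound, and the Ugt2b7 probes give 1 pattern.

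Ugt2b7 was well above background in every treated rat under a pair of compounds, and there it rose. Under 1,2-dichlorobenzene its mean ratio was the third largest of all 16085 probes. Under 1,2,3-trichloropropane it was the 15th largest. Of the 16 rats given the other 4 compounds, 1 had a signal well above background. The probe values below are from 919, whose bases 5 to 34 begin the run of 56 bases that it shares with probe 704874, shown to mark how far these probes overlap.
Ugt2b7 probe 919, bases 5 to 34: tgatgggcatgactactccctttattgctg

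The 1,2-dichlorobenzene rats had Ugt2b7 signals of 5340, 3619, 3748 and 2103, against 273, 207, 204 and 145 in the vehicle channels. The log2 ratios of 4.29, 4.12, 4.20 and 3.86 averaged 4.12 ± 0.19, or 17.4-fold (adjusted p = 3.79e-16). Both channels were well above background on all 4 arrays and did not overlap. The vehicle signal was highest on the array with the highest treated signal and lowest on that with the lowest. It lay between 85.4 and 110 on the 20 arrays of the other compounds, and its part in the ratio was not tested.

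The 1,2,3-trichloropropane rats had Ugt2b7 signals of 274, 490, 520 and 412, against 107, 92.0, 101 and 102 in the vehicle channels. The vehicle channel was well above background on 3 of the 4 arrays. The log2 ratios were 1.35, 2.41, 2.37 and 2.02, with replicate 1 lowest, and the mean was 2.04 ± 0.49 or 4.11-fold (adjusted p = 5.66e-11). All treated signals exceeded all vehicle signals. Since the vehicle signal lay near background, the size moved with the background step: without background correction the mean was 0.88 and no longer past 2-fold, and with the log ratio of the scanner software it was 3.70. The matching means for 1,2-dichlorobenzene were 3.15 and 4.66, both called.

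Ugt2b7 was not well above background in either channel on any array of hexachloroethane, monuron or tetracycline hydrochloride, and in 1 treated rat of 4 for 1-amino-2-methylanthraquinone. Treated signals in these 16 rats ran from 82.4 to 136, so no fold is given. Set against a limit of well above background, taken for each dim compound by itself, the mean treated signal under 1,2-dichlorobenzene was at least 35.6-fold higher than under hexachloroethane. It was at least 30.7-fold higher than under 1-amino-2-methylanthraquinone, 27.8-fold than under monuron and 36.9-fold than under tetracycline hydrochloride. For 1,2,3-trichloropropane the bounds were 4.17, 3.60, 3.25 and 4.32 in the same order. These bounds hold for group means and not for every rat, and they compare signals of 1 dye between slides. The limit for monuron was log2 6.98, and its rat at 136 lay above it.

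The difference between the responding compounds was also larger than the spread. 1,2,3-Trichloropropane minus 1,2-dichlorobenzene was -2.08 (95% interval -2.42 to -1.74, adjusted p = 1.46e-07), and 0.603% of all probes were called in that comparison. Set against the mean of the other 5, 1,2-dichlorobenzene was higher by 3.68 and 1,2,3-trichloropropane by 1.19, the latter less without background correction. That mean includes the 4 compounds at or near background, and Ugt2b7 passed the filter only through the responding compounds. The contrast is therefore no further support for the rise. The other Ugt2b7 probes gave 4.06 and 3.68 under 1,2-dichlorobenzene, and 1.99 and 1.78 under 1,2,3-trichloropropane, for 10919 and 704874 in turn. The 3 probes overlap in sequence and are not separate evidence.

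Ugt1a1, the bilirubin enzyme, moved little. No compound changed it by 2-fold, and the lowest value was in the 1-amino-2-methylanthraquinone rats, all of which lay below their vehicle pool. Its probe and that of Ugt1a6, a neighbour that conjugates flat phenols, are shown because they share a run of 13 bases, given in capitals, while their ratios differ.
Ugt1a1 probe 705924: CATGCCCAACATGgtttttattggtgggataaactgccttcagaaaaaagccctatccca
Ugt1a6 probe 705806: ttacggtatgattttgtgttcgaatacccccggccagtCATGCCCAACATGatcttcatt
RefSeq gives the same annotated end to 8 of 10 Ugt1a genes, Ugt1a1 included. Genes of this cluster each have a first exon of their own and share the exons that follow.

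The 1-amino-2-methylanthraquinone rats had Ugt1a1 signals of 671, 667, 770 and 675, against 1065, 939, 995 and 877 in the vehicle channels, with no overlap. The log2 ratios of -0.67, -0.49, -0.37 and -0.38 averaged -0.48 ± 0.14 (adjusted p = 3.34e-07). Against the mean of the other 5 compounds the difference was -0.68 (adjusted p = 2.28e-08). Both values passed the adjusted p and both were under 2-fold. The value against vehicle stayed below 0 under every alternative run, between -0.87 and -0.37.

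Under hexachloroethane Ugt1a1 signals were 1557, 1754, 1786 and 1575, against 1310, 1399, 1295 and 1245 in the vehicle channels, and the ratio averaged 0.34 ± 0.089 (adjusted p = 4.30e-05). Monuron averaged 0.29 ± 0.14 (adjusted p = 0.000238) and tetracycline hydrochloride 0.28 ± 0.059 (adjusted p = 0.000475). The 4 rats of each of these compounds were above their pools, but all means were under 2-fold. With median centring in place of loess, which set the median of all probes between -0.32 and -0.21, they turned to -0.14, -0.063 and -0.037. Their direction therefore depends on the scaling.

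For the remaining compounds Ugt1a1 values scattered around vehicle. The 1,2,3-trichloropropane rats had log2 ratios of 0.18, -0.01, -0.01 and 0.28, a mean of 0.11 ± 0.15 (adjusted p = 0.119). The 1,2-dichlorobenzene rats had 0.08, -0.03, -0.08 and -0.04, a mean of -0.018 ± 0.067 (adjusted p = 0.808). Hexachloroethane minus monuron was 0.052 (95% interval -0.11 to 0.22) and monuron minus tetracycline hydrochloride 0.0093 (-0.15 to 0.17), so these neighbours did not differ beyond their spread. At the low end, 1-amino-2-methylanthraquinone minus 1,2-dichlorobenzene was -0.46 (-0.62 to -0.29, adjusted p = 8.32e-05).

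No difference between the classes passed the threshold for the 3 genes. Ugt2b1 averaged 1.63 over the 4 carcinogens and 1.69 over the 2 non-carcinogens, a difference of -0.058 (SE 0.36). Ugt2b7 averaged 0.56 over the carcinogens and 2.03 over the non-carcinogens, a difference of -1.47 (SE 0.64, unadjusted p = 0.0304, adjusted p = 0.9999 in limma with compound as a random block). Of the 6 compounds behind these Ugt2b7 means 4 were at or near background, so the difference carries the other 2 and is not a measured fold. Ugt1a1 averaged 0.067 over the carcinogens and 0.13 over the non-carcinogens, a difference of -0.065 (SE 0.17). With compound as the unit 0% of the 16085 probes were called, while 259 had an unadjusted p under 0.05. Without tetracycline hydrochloride the Ugt2b7 difference was -3.56, and 1,2-dichlorobenzene was then the only non-carcinogen, so that class had no spread of its own.

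The 3 genes did not share 1 pattern over the arrays. Over 24 arrays, which share 6 slides and 4 rats for each compound, Pearson r was 0.35 for Ugt2b1 with Ugt2b7, 0.51 for Ugt2b1 with Ugt1a1 and -0.17 for Ugt2b7 with Ugt1a1. Among 4693 named genes with a value on every array, the gene most like Ugt2b7 was Gstp1, the placental form of glutathione transferase. Its r was 0.988, and 0.74 after each compound's mean was taken away. The 24 points fall into clusters by compound, which carry much of the first value.

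Gstp1 had log2 ratios of 4.93, 5.00, 4.39 and 4.21 in the 1,2-dichlorobenzene rats and 1.46, 2.64, 2.62 and 1.81 in the 1,2,3-trichloropropane rats. The other 16 rats had -0.45 to 0.50. In the 1,2,3-trichloropropane group replicate 1 was lowest for both genes. Replicate 2 was highest for Gstp1 and on Ugt2b7 probe 919, while replicate 3 was highest on Ugt2b7 probes 10919 and 704874. Ptgr1 (r 0.95), Rpl12 (0.95) and Mef2d (0.94) were also among the 5 genes most like Ugt2b7, with r within compounds of 0.17 to 0.41.

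**Figure D4:**
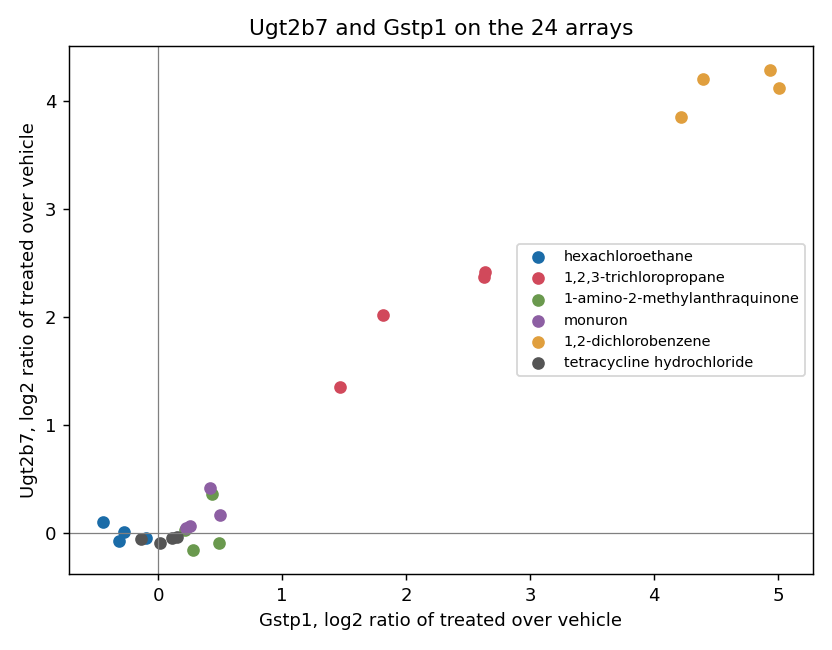
Log2 ratio of treated over vehicle of Ugt2b7 (vertical axis) against that of Gstp1 (horizontal axis), with 1 point for each of 24 arrays coloured by compound. The 1,2-dichlorobenzene rats lie at upper right, the 1,2,3-trichloropropane rats between, and the other 16 rats near 0 on both axes.

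Among the 5 genes most like Ugt2b1 were Cacybp (r 0.91, within compounds 0.55), Psmb5 (0.90), Ndufab1 (0.89) and Prps1 (0.87). Their own ratios were small. Cacybp averaged 0.37 under hexachloroethane and -0.38 under 1-amino-2-methylanthraquinone. The genes most like Ugt1a1 were Rdh7 (0.90), Sec23a (0.90), Gulo (0.89), Pdzk1 (0.89) and Spast (0.89). Rdh7, a retinol dehydrogenase, averaged -1.16 under 1-amino-2-methylanthraquinone and between -0.64 and -0.31 under the other 5 compounds.

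Of 24 rat UGT genes listed, 9 were on the array under a current symbol and 8 were measured. Counted by the brightest probe of a gene, 1 of the 8 was called higher under hexachloroethane (0.898% of 11579 genes called in either direction). The count was 2 of 8 under 1,2,3-trichloropropane (0.933%), 2 of 8 under monuron (1.4%), 5 of 8 under 1,2-dichlorobenzene (1.61%) and 1 of 8 under tetracycline hydrochloride (0.285%). Under 1-amino-2-methylanthraquinone it was 0 of 8 (2.12%) in limma, with 3 higher and 1 lower at an unadjusted p under 0.05. The median ratio of the 8 genes was 1.01 for 1,2-dichlorobenzene, 0.56 for 1,2,3-trichloropropane, 0.45 for monuron, 0.17 for hexachloroethane, 0.14 for tetracycline hydrochloride and 0.055 for 1-amino-2-methylanthraquinone. Ugt2b1 and Ugt2b7 are among the 8. With median centring the medians were below 0 for every compound except 1,2-dichlorobenzene (0.46), where 2 of 8 were called.

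The other called members were Ugt1a2 (1.02 ± 0.17) and Ugt1a6 (1.00 ± 0.18) under 1,2-dichlorobenzene. Ugt2a1, an enzyme known from olfactory tissue, was called at 1.16 ± 0.13 under 1,2-dichlorobenzene and at 1.18 ± 0.15 under monuron. Its dimmer probe 702392 gave 0.52 and 0.60 there and was not called. Ugt1a2, Ugt1a6 and Ugt2a1 were not past 2-fold with median centring (0.42 to 0.99). The Ugt1a2 probe shares a run of 58 bases with Ugt1a6 probe 2686, so their signals cannot be told apart. Ugt2b15 and Ugt2b35 were not called under any compound, and the highest mean among their probes was 0.81 for Ugt2b15 probe 704286 under 1,2,3-trichloropropane.

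Probes of Ugt1a6 disagreed. Probe 705806, the dim one printed above, rose by 1.89 ± 0.12 under 1,2,3-trichloropropane, 1.67 ± 0.30 under 1-amino-2-methylanthraquinone, 1.76 ± 0.039 under monuron and 2.21 ± 0.09 under 1,2-dichlorobenzene. It averaged 0.84 under hexachloroethane and 0.49 under tetracycline hydrochloride and was not called there. The bright probe 6428 was called only under 1,2-dichlorobenzene, and averaged 0.84 under 1-amino-2-methylanthraquinone. Probe 6430 averaged -0.35 under 1-amino-2-methylanthraquinone. In that group Ugt1a1 was 0.48 below vehicle on the log2 scale, while 4 of 5 probes named for its cluster neighbour Ugt1a6 were above vehicle. Of these 4, probes 6428 and 6429 are the same sequence, and probe 2686 cannot be told apart from Ugt1a2. The probes were not placed in exons, and whether any of them reads exons shared by the cluster was not tested.

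**Figure D5:**
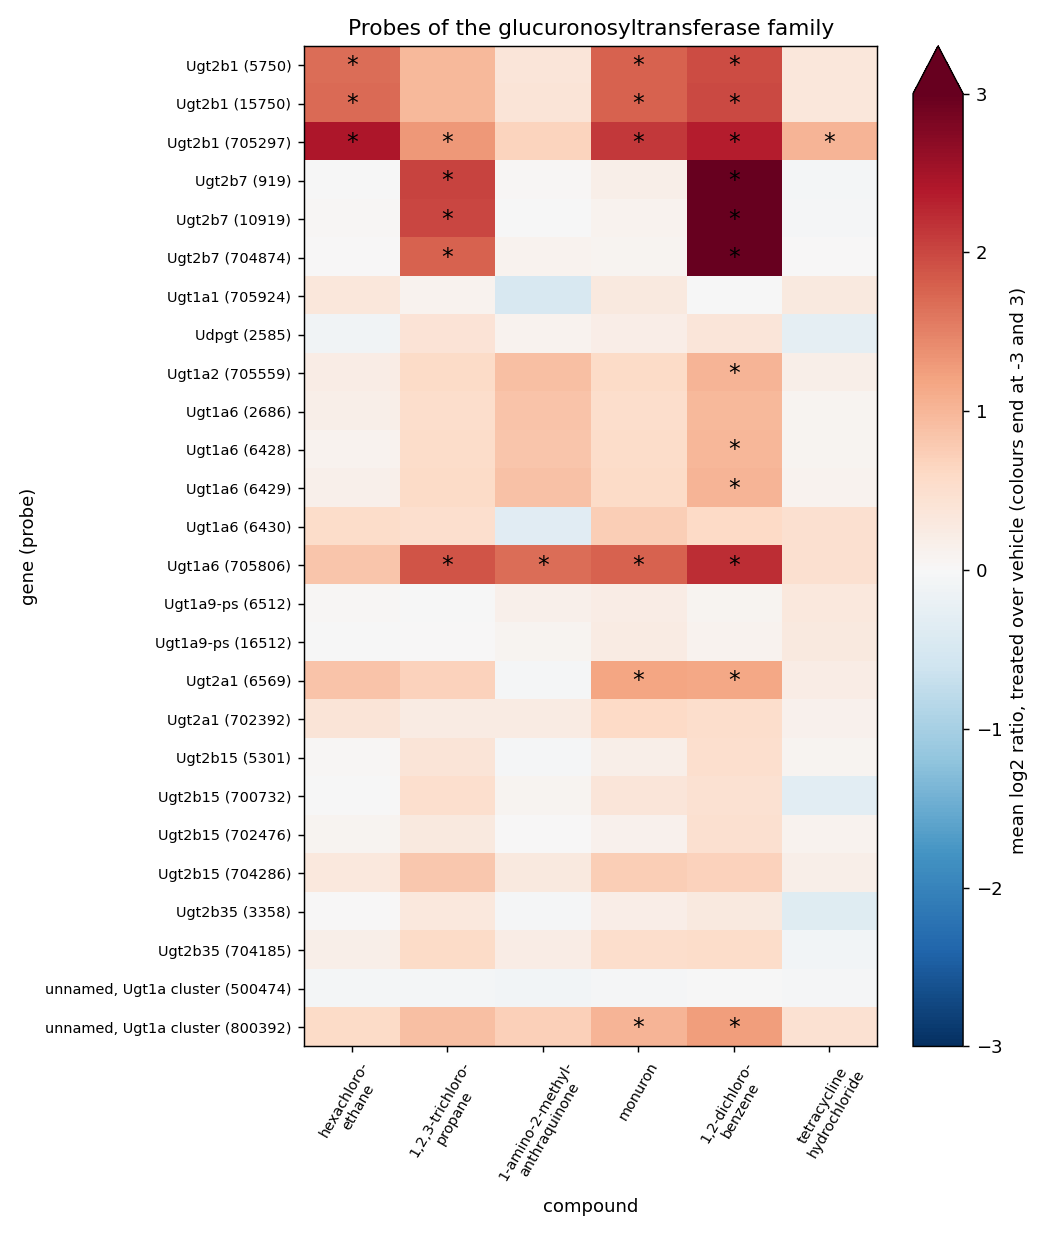
Mean log2 ratio of treated over vehicle (colour) for each of 26 kept UGT probes (rows, with gene and probe) under 6 compounds (columns), with a star where the probe was called. Stars number 12 under 1,2-dichlorobenzene (2.01% of all 16085 probes called), 6 under monuron (1.87%), 5 under 1,2,3-trichloropropane (1.24%) and 3 under hexachloroethane (1.23%). There is 1 under 1-amino-2-methylanthraquinone (2.65%) and 1 under tetracycline hydrochloride (0.317%), and every star is an increase. Some rows are the same sequence: 5750 and 15750, 919 and 10919, 6428 and 6429, 6512 and 16512.

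Glucuronidation also needs UDP-glucuronic acid and a way out for the product. Of 20 genes listed for the supply and handling of the sugar, 12 were measured and 0 were called under any compound in limma. Between 0.285 and 2.12% of all 11579 genes were called for each compound, so 0 of 12 is near that share. At an unadjusted p under 0.05, between 3 and 6 of the 12 were higher and between 1 and 5 lower. Of the genes listed for glucuronide transport and cleavage, 8 were measured, and the cleavage gene Gusb was not among them. Abcc3, an exporter of glucuronides into blood, was the one called. The share of all genes called was 0.898 to 2.12% under the compounds named next. Abcc3 rose by 1.32 ± 0.34 under hexachloroethane, 1.35 ± 0.21 under 1-amino-2-methylanthraquinone, 1.15 ± 0.11 under monuron and 1.26 ± 0.17 under 1,2-dichlorobenzene. With median centring Abcc3 was 0.76 to 0.92 and not called under any of these compounds.

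Of 4 measured genes of haem and bilirubin turnover 0 were called under any compound (0.285 to 2.12% of all genes called). Up to 2 were higher and up to 2 lower at an unadjusted p under 0.05. UGT enzymes also conjugate thyroid hormone. Of 6 measured genes for its carriers and enzymes, Serpina7, which encodes thyroxine-binding globulin, was the only one called. It was -1.87 ± 0.73 under hexachloroethane (0.898% of all genes called) and 1.92 ± 1.02 under 1-amino-2-methylanthraquinone (2.12%). These values were opposite in sign between the groups with the highest and the lowest mean of Ugt2b1 probe 705297. Of 12 measured receptors and factors that act on UGT genes, Foxa2 was the only one called, at 1.15 ± 0.50 under 1,2,3-trichloropropane. It was 0.62 and not called with median centring. With 0.285 to 2.12% of all genes called for each compound, 1 call over 12 genes and 6 compounds is near that share. Nr1i2, the gene of PXR, was not measured.

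Targets of the receptors known for UGT genes gave different orders of the compounds. Cyp1a1, the classic AhR target, rose by 5.01 ± 0.44 under 1-amino-2-methylanthraquinone and 2.75 ± 1.20 under hexachloroethane. It was also called higher under monuron and 1,2-dichlorobenzene, where the vehicle channel was well above background on 1 and 0 of 4 arrays, so no size is given. Cyp1a2, of the same group, rose by 2.46 ± 0.18 under 1-amino-2-methylanthraquinone and 1.54 ± 0.055 under monuron (0.69 and not called with median centring), and was called lower under 1,2-dichlorobenzene at -1.19 ± 0.59. The 6 measured CAR and PXR targets had median ratios of 0.86 under hexachloroethane, 0.43 under monuron, 0.044 under 1,2,3-trichloropropane, -0.032 under 1-amino-2-methylanthraquinone, -0.15 under tetracycline hydrochloride and -0.18 under 1,2-dichlorobenzene. Cyp2b1 and Cyp2b2, also on that list, were not measured. Cyp2b15 was called under hexachloroethane alone, at 2.05 ± 0.13. Cyp2c6v1 rose by 2.08 ± 0.15 under hexachloroethane, 1.29 ± 0.14 under monuron and 1.10 ± 0.20 under 1,2-dichlorobenzene. With median centring these Cyp2c6v1 values were 0.95, 0.27 and 0.23 and not called. Cyp3a9, in the same list, fell by 3.91 under 1-amino-2-methylanthraquinone, 3.26 under 1,2-dichlorobenzene, 2.08 under 1,2,3-trichloropropane and 1.70 under monuron.

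All 9 listed Nrf2 targets were measured, with 2 called higher under hexachloroethane (0.898% of all genes called), 4 under 1,2,3-trichloropropane (0.933%), 3 under 1-amino-2-methylanthraquinone (2.12%), 3 under monuron (1.4%), 4 under 1,2-dichlorobenzene (1.61%) and 1 under tetracycline hydrochloride (0.285%). Gsta3, a glutathione transferase, was called under all 6 compounds, highest under monuron at 5.25 ± 0.063 and lowest under tetracycline hydrochloride at 1.54 ± 1.13. Nqo1, a quinone reductase, was highest under 1,2-dichlorobenzene at 2.39 ± 0.25. With median centring Nqo1 was 0.63 under hexachloroethane and 0.53 under 1,2,3-trichloropropane and not called there. Akr7a3, an aldehyde reductase, reached 3.58 ± 0.23 under 1,2-dichlorobenzene and 2.60 ± 0.44 under 1,2,3-trichloropropane. It was also 2.50 ± 0.19 under monuron and 2.22 ± 0.39 under 1-amino-2-methylanthraquinone, where Ugt2b7 was at or near background. Gstp1, in the same list, was called only under 1,2-dichlorobenzene (4.64 ± 0.39) and 1,2,3-trichloropropane (2.14 ± 0.59), as Ugt2b7 was. The part of Nrf2 in the Ugt2b7 ratio was not tested. Of 5 measured PPARalpha targets 0 were called under any compound (0.285 to 2.12% of all genes called). Up to 2 were higher and up to 2 lower at an unadjusted p under 0.05.

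The promoters of the 3 genes are shown because the genes differ in which compounds moved them. Each window is the 250 bases before the annotated start on the plus strand of GRCr8, from RefSeq, and capitals mark the motif matches described next.
Ugt2b1, chr14:21378632-21378881: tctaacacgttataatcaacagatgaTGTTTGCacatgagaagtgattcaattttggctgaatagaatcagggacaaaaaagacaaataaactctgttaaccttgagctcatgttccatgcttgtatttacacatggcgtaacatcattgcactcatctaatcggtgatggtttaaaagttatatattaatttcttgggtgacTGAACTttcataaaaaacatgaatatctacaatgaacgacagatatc
Ugt2b7, chr14:21251285-21251534: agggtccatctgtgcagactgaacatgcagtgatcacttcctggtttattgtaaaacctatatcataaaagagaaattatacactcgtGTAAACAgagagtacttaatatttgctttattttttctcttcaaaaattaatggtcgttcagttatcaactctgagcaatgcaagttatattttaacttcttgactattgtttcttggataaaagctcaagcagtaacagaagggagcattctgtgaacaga
Ugt1a1, chr9:96248893-96249142: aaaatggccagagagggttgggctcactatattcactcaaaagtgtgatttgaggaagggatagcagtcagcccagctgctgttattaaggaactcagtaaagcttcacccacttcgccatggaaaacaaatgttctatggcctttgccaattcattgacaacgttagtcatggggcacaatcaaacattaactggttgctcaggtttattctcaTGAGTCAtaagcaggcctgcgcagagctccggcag
The G and C content was 33.2% for Ugt2b1, 34.0% for Ugt2b7 and 46.0% for Ugt1a1.

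Motifs were searched on both strands. TGTTTGC, a forkhead site, lies in Ugt2b1 at -224 to -218 and in 4.16% of 33469 promoter windows. AGTTCA, a half-site of nuclear receptors, lies in Ugt2b1 at -47 to -42 on the minus strand and in 12.2% of windows. TGTTTAC, another forkhead site, lies in Ugt2b7 at -162 to -156 on the minus strand and in 3.21%. TGACTCA, an AP-1 site, lies in Ugt1a1 at -35 to -29 on the minus strand and in 4.05%. The letters GCGTG (25.9% of windows), TGACNNNGC (10.1%) and AGGTCA (14.1%) are in none of the 3 windows. The Gstp1 window holds TGACNNNGC at -61 to -53, overlapping TGACTCA at -61 to -55, and GCGTG at -238 to -234 on the minus strand. These matches are letters in a window and were not tested against the ratios.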

How the data were processed

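The deposited scanner files gave the mean spot signal and local background of each dye as intensity on a linear scale, per the file headers. Per the file headers, the same files held the scanner software's own log10 ratio of Cy5 over Cy3. The deposited series table held log2 ratios of treated over vehicle. Its direction and scale were found by setting it against the scanner ratios, and the authors' normalisation of it is not given in the sources used here. Signals were read with Agilent Feature Extraction 9.1.3.1, per the submitters' processing notes. Per the labels' protocols, RNA was isolated with an RNeasy kit and turned into amplified, dye-labelled cRNA.

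In R 4.3.3 with limma 3.58.1, signals were background corrected with normexp (offset 50) and scaled with loess within each array. Control spots had weight 0, and they and the 0 to 74 outlier spots per array were then left out. Copies of a probe were averaged, with ratios signed as treated over vehicle. A probe was kept if some compound had it well above background, in the same channel, on each of its 4 arrays, which left 16085. Channel signals for display were quantile scaled in their average, which leaves ratios as they were. All 24 arrays were fitted with lmFit and eBayes (18 residual and 2.75 prior degrees of freedom), and p was adjusted by Benjamini-Hochberg over all probes of a comparison. The contrast of the classes had compound as a random block (consensus correlation 0.586). Intervals are 95% and not adjusted. The script was tested on simulated data.

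The labels describe a control group for each compound, and whether corn oil compounds shared a pool is not given. Differences between pools are left out of the error of every contrast between compounds, which is then too small by an unknown amount. Array names were updated through a RefSeq table of GRCr8, with 6176 probes matched by current symbol, 1918 by older symbol, 902 by RefSeq record and 621 by gene ID, and 12283 without a current symbol. A gene was represented by its brightest kept probe. The rule for names took all probes of the 3 genes, any measured UGT gene, up to 4 called members of a list for each compound, and the 5 genes most similar to each of the 3, of which 2 are not reported here. The genes, lists and tests were chosen with earlier results of these data known. Alternatives were other scaling, background correction, filters, array weights, the scanner and series ratios, a replicate block and leaving out each rat. Same-numbered rats of different compounds did not deviate together (r -0.27 to 0.41 over 60 pairs), so rats were not paired.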

Additional observations from a re-analysis of the deposited data

How the results depend on the processing

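On its brightest probe, Ugt2b7 stayed called under 1,2-dichlorobenzene in every alternative that could give a value. The same held for the brightest Ugt2b1 probe under hexachloroethane, monuron and 1,2-dichlorobenzene. The other Ugt2b1 probes lost their call under hexachloroethane with median centring. With median centring of each array in place of loess, Ugt2b1 was 0.59 under 1,2,3-trichloropropane and 0.51 under tetracycline hydrochloride, and 1 and 0 of the 7 probes were called under hexachloroethane and tetracycline hydrochloride. In compounds at or near background, a Ugt2b7 contrast with the mean of the other 5 gives no level of the gene, since that mean holds the 2 responding compounds. With median centring it was -0.92 for hexachloroethane, 0.88 for 1,2,3-trichloropropane, -0.90 for monuron and -0.88 for tetracycline hydrochloride, none past 2-fold. That scaling called 38 probes higher and 1023 lower under hexachloroethane, against 104 and 94 with loess. The splits were 69 and 659 (66 and 134 with loess) for 1,2,3-trichloropropane, 180 and 1473 (251 and 175) for 1-amino-2-methylanthraquinone, 100 and 683 (160 and 141) for monuron, 123 and 669 (170 and 154) for 1,2-dichlorobenzene, and 37 and 263 (31 and 20) for tetracycline hydrochloride. Without background correction Ugt2b7 under 1,2,3-trichloropropane was 0.88 against vehicle and 0.24 against the other 5, and 1 of 7 probes was called. The contrasts of Ugt2b7 at or near background were then -0.81 for hexachloroethane, -0.80 for 1-amino-2-methylanthraquinone, -0.75 for monuron and -0.83 for tetracycline hydrochloride. Ugt2b1 under tetracycline hydrochloride was 0.99 without background correction, 0.98 with the scanner ratio, 0.97 with the series table and 0.99 with array weights, and 0 of 7 probes were called there under each of these, in limma. Leaving out 1 of its rats gave 0.87 to 1.09 and 0 to 1 called probes. The Ugt2b7 contrast of monuron was -0.82 with the scanner ratio and -0.83 with the series table. Those ratios called more probes, between 2.84 and 5.61% for each compound except tetracycline hydrochloride (0.945 and 1.04%). Within a scan day, Ugt2b1 was 1.42 for hexachloroethane and -1.42 for tetracycline hydrochloride, and Ugt2b7 was 0.055 and -0.055, with both at background. With corn oil compounds alone the class difference of Ugt2b7 was -3.56, with 1 non-carcinogen and no spread in that class. With both channels well above background on all 24 arrays required, Ugt2b7 was not tested, and 1 and 3 probes were called under 1,2,3-trichloropropane and 1,2-dichlorobenzene. With the replicate number as a block Ugt2b1 under hexachloroethane stayed at 2.43 (adjusted p = 2.30e-11), and the block changed no call. Leaving out a rat of another compound changed 0 of 360 calls against vehicle. For the changes not set by the alternative's construction, the cause was not tested. Signal near background limits Ugt2b7.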
